A study of Mus musculus with 10 samples.

Results

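Gata1, Klf1, Tal1, Nfe2, Zfpm1, Lmo2, Ldb1, Gfi1b, Bcl11a and Epor, the transcription factors of the red cell lineage and the receptor for erythropoietin, were followed in mouse bone marrow. They were taken by gene symbol, and all 10 were found among the 55367 genes of the deposited table and passed the filter on low counts. Of the 10 libraries, 5 were made from marrow cells, labelled BMMC, of mice that drank water with 1% α-ketoglutarate (α-KG), and the other 5 from mice on regular water. α-KG belongs to the tricarboxylic acid cycle and is used up by dioxygenase enzymes, and the series concerns metabolism and platelet activity in myeloproliferative neoplasms. The sources used here give no genotype, strain, age, sex or duration. Nothing in the labels ties a library to a single animal, so each p-value reflects only how these libraries vary, which may be technical.

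Red cells form when progenitors leave the multipotent state and come to depend on erythropoietin. GATA1 binds DNA at GATA sequences and works with its cofactor FOG1, the product of Zfpm1. It also sits in a larger complex with the helix-loop-helix factor TAL1 and the bridging proteins LMO2 and LDB1. KLF1 binds CACC sequences and drives the adult β-globin gene and many red cell membrane genes, while GFI1B and BCL11A repress genes. Most of these factors are shared with megakaryocytes, mast cells or early progenitors, and Bcl11a is also used in B cells and plasmacytoid dendritic cells.

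Promoter sequences are shown for Gata1, Klf1 and Epor, whose levels moved together over the libraries, and for Bcl11a, whose level did not move with theirs. Each is a RefSeq window of 300 bases on GRCm38.p6, read 5′ to 3′ on the strand of the gene, with 250 bases before the start site and 50 from it on. Capitals mark matches on either strand to a GATA word (AGATAA or its variant AGATAG, or likewise TGATAA with its variant TGATAG) or to the CACC word CCNCNCCC.
Gata1 (chrX:7967861-7968160, minus strand): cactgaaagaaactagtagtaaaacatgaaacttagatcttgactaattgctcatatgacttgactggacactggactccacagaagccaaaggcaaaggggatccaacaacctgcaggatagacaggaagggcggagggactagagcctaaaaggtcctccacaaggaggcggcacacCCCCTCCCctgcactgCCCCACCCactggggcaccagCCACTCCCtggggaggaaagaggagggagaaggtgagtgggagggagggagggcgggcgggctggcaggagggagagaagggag
Klf1 (chr8:84901732-84902031, plus strand): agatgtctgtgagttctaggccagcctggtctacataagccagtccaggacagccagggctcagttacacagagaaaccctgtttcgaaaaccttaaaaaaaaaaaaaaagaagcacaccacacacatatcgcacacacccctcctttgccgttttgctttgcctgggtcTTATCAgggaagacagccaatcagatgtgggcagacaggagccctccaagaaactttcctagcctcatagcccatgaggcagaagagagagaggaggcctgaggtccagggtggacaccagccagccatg
Epor (chr9:21963527-21963826, minus strand): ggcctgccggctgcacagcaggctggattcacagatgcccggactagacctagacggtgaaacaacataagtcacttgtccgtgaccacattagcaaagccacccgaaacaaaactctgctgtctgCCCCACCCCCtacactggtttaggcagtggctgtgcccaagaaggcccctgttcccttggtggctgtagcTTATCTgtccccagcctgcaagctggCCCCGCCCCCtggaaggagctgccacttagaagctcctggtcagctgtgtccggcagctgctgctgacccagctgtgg
Bcl11a (chr11:24080445-24080744, plus strand): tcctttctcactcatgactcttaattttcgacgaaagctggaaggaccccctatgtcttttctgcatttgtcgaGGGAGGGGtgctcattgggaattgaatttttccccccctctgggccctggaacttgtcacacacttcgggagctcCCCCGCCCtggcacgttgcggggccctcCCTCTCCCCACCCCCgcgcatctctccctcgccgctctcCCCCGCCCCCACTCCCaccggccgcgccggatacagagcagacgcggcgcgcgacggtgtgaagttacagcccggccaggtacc

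The Klf1 window held 1 GATA match, beginning 80 bases before the start site, and no CACC match. The Epor window held 1 GATA match, beginning 54 bases before the start site, and 4 CACC matches that overlap in pairs. The Gata1 window held 3 CACC matches and no GATA match, and the Bcl11a window held 8 CACC matches, some overlapping, and no GATA match. Over all 32817 RefSeq windows of this length, 29.8% had a GATA match, 49.5% a CACC match and 10.3% both. Windows were found for 8 of the 10 genes (11 windows, since Tal1 and Ldb1 have several), not for Nfe2 and Lmo2. Counted by window, as the shares above are, 5 of the 11 had a GATA match and 9 a CACC match. Counted by gene, 5 of the 8 had a GATA match and 7 a CACC match in some window. The NF-E2 word TGANTCA was in none of the 11 windows and in 7.81% of all windows. A match describes the letters and is not shown to be a binding site.

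In marrow of mice given α-KG, 9 of the 10 genes had log2 fold changes below 0, and Bcl11a had one above 0. None was called at an adjusted p under 0.05 (edgeR quasi-likelihood test, adjusted over 15126 genes), where 2.73% of all genes were called, 2.39% higher and 0.344% lower. Adjusted p of the 10 genes ran from 0.139 to 0.414. At an unadjusted p under 0.05 there was 1, Gfi1b, where 27.8% of all genes tested were under that value. Their median log2 fold change was -0.64 and that of all genes tested was 0.02. No gene of the 10 had groups that did not overlap, against 5.65% of all genes. In a mixture of marrow cells, fewer cells of a type and less RNA per cell cannot be told apart.

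Much of the spread lay within the α-KG group. α-KG 1 was the lowest of all 10 libraries for 8 genes, and α-KG 3 was the lowest of all for the other 2, Ldb1 and Bcl11a. Among the water libraries, water 3 was the lowest for 8 genes. Without α-KG 1 the median log2 fold change of the 10 was -0.40, and without α-KG 3 it was -0.49, with 9 genes below 0 in both fits. Calls over all genes also hung on single libraries: with α-KG 4, water 1, water 2 or water 4 left out, 0 genes were called (edgeR, 3232 to 3672 at an unadjusted p under 0.05), while 1610 were called higher and 1073 lower without α-KG 2. Libraries held 14291364 to 22490118 counts, and each of the 10 genes had at least 179 counts in every library. Markers of marrow lineages were present in every library, with neutrophil genes summing to 3577 to 7198 counts per 1e+06 (CPM, TMM scaling) in α-KG and 3544 to 6555 CPM in water. The small RNAs Rn7s1 and Rn7s2 took 23.97% to 31.0% of the counts in α-KG and 7.56% to 24.2% in water. With these RNAs and CT010467.1 left out, the median of the 10 genes was -0.638 in place of -0.639, and 0 of them were called (edgeR adjusted p = 0.130 to 0.401).

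**Figure D1:**
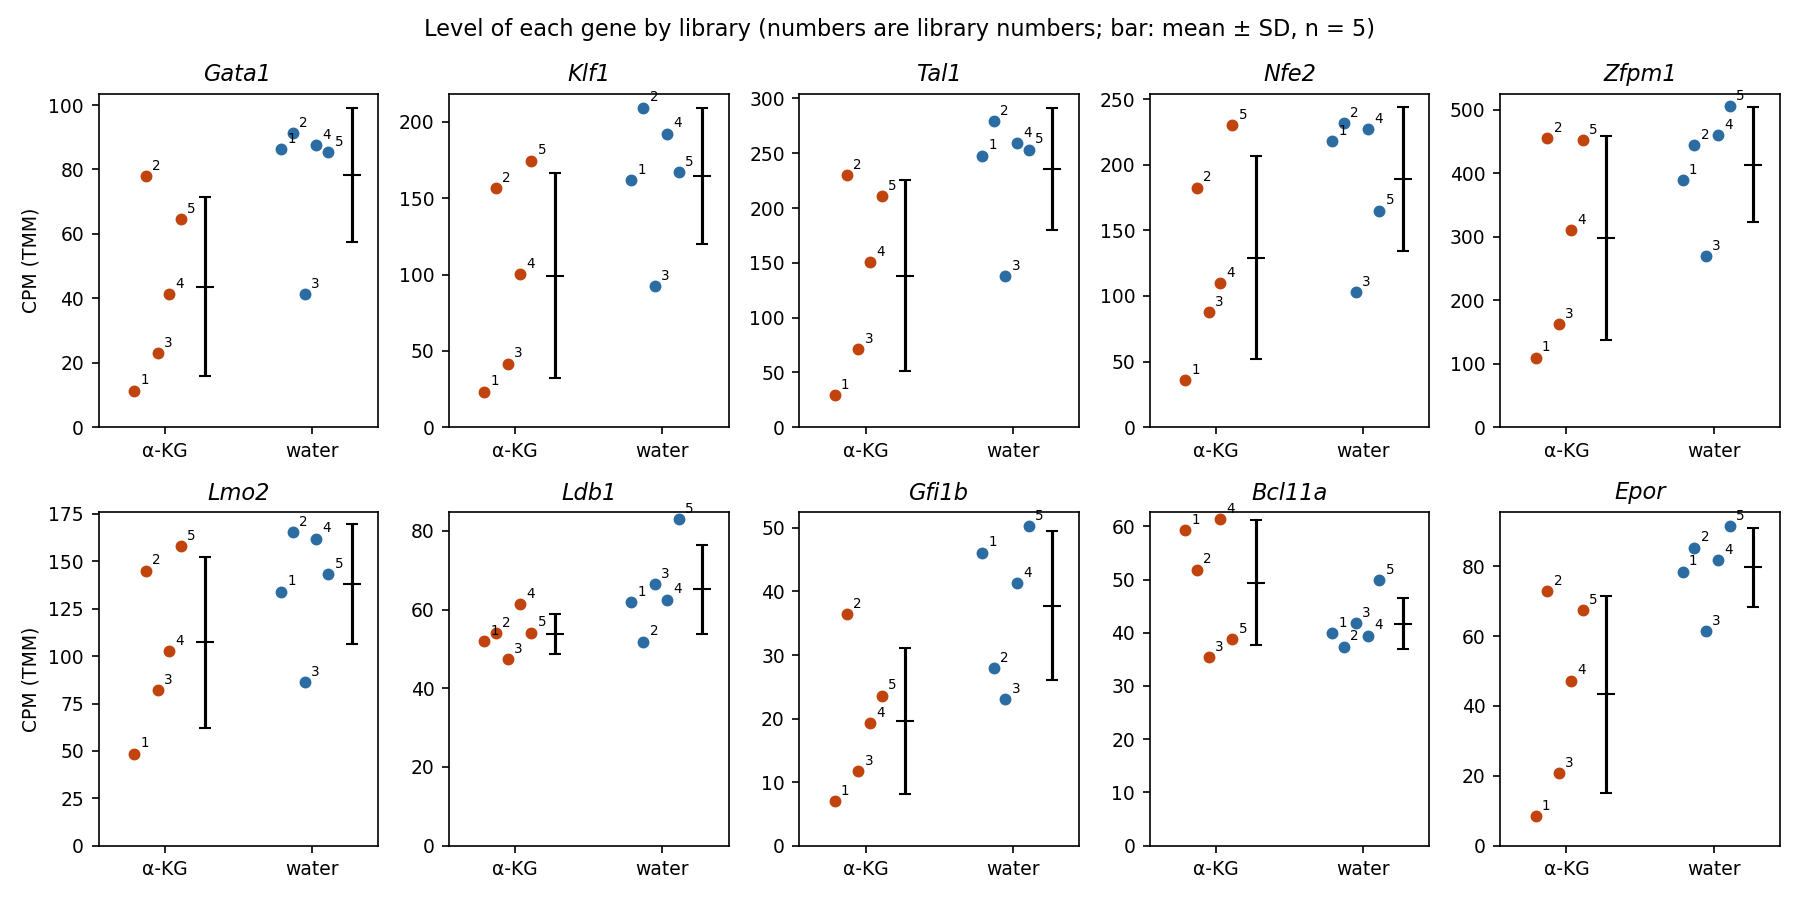
Levels of the 10 genes in CPM (TMM scaling, linear axes from 0) in 5 α-KG libraries (left, orange) and 5 water libraries (right, blue), with library numbers beside the points and mean ± SD as bars. α-KG 1 and α-KG 3 lie low for Gata1, Klf1, Tal1 and Epor, as does water 3 among the water libraries, while Ldb1 and Bcl11a spread less.

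Gata1 (chromosome X, 7959260 to 7978071, minus strand, GRCm38), the lineage's central activator, was at 11.4, 78.0, 22.9, 41.3 and 64.5 CPM in α-KG 1 to 5, against 86.3, 91.2, 41.4, 87.7 and 85.3 CPM in water 1 to 5.  All 5 α-KG values lay below 4 of the 5 water values, and the groups overlapped only through water 3. The means were 43.6 ± 27.8 CPM in α-KG and 78.4 ± 20.8 CPM in water (SD, n = 5 each), with a log2 fold change of -0.85 ± 0.43 SE (edgeR adjusted p = 0.216). Its cofactor gene Zfpm1 (chromosome 8, 122282141 to 122337251), which the gene model Gm20388 overlaps on the same strand, was at 109, 455, 162, 310.4 and 452 CPM in α-KG, against 389, 444, 269.7, 459.9 and 506 CPM in water. α-KG 2, α-KG 4 and α-KG 5 were within the water range and α-KG 1 and α-KG 3 below it, and the log2 fold change was -0.47 ± 0.36 SE (edgeR adjusted p = 0.400).

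Klf1 (chromosome 8, 84901928 to 84905291), which activates adult globin and membrane genes, was at 23.3, 157, 41.7, 100.4 and 175 CPM in α-KG 1 to 5, against 162, 209, 92.6, 192 and 167 CPM in water 1 to 5. α-KG 1 and α-KG 3 were below every water library, and the other α-KG values were within the water range. The log2 fold change was -0.73 ± 0.47 SE (edgeR adjusted p = 0.313). Nfe2 (chromosome 15, 103248212 to 103258403) encodes the subunit of NF-E2 that is restricted to blood cells and acts in both red cells and megakaryocytes. It was at 36.0, 183, 88.0, 109.8 and 230.2 CPM in α-KG, against 218, 232, 103, 227 and 165 CPM in water, with a log2 fold change of -0.55 ± 0.41 SE (edgeR adjusted p = 0.388). α-KG 1 and α-KG 3 were below every water library, while α-KG 5 was close to the highest.

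Of the complex that GATA1 joins, Tal1 (chromosome 4, 115056426 to 115071755) followed Gata1 most closely. It was at 29.3, 230.0, 71.1, 151 and 211 CPM in α-KG, against 248, 279.6, 138, 259 and 253 CPM in water, and again water 3 alone overlapped the α-KG range. The log2 fold change was -0.77 ± 0.45 SE (edgeR adjusted p = 0.277). Lmo2 (chromosome 2, 103957986 to 103981878) was at 48.5, 145, 82.2, 102 and 158 CPM in α-KG, against 134, 165, 86.4, 162 and 143 CPM in water. α-KG 1 and α-KG 3 were again below every water library, and the log2 fold change was -0.37 ± 0.29 SE (edgeR adjusted p = 0.414). Ldb1 (chromosome 19, 46031570 to 46045214), which is used far beyond blood, spread least in α-KG, at 52.0, 54.0, 47.3, 61.4 and 54.1 CPM, against 61.9, 51.8, 66.4, 62.5 and 83.0 CPM in water (log2 fold change -0.28 ± 0.14 SE, edgeR adjusted p = 0.199). Only α-KG 3 was below every water library, and the other α-KG values were inside the water range. On the opposite strand Lmo2 overlaps 4931422A03Rik and Ldb1 overlaps Pprc1, and no source used here gives the strand setting of the counts, so reads of such partners cannot be told apart.

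Gfi1b (chromosome 2, 28609450 to 28621982), a repressor needed for red cells and platelets, had the lowest log2 fold change and the lowest adjusted p of the 10, at -0.94 ± 0.38 SE (edgeR adjusted p = 0.139). It was at 6.96, 36.5, 11.7, 19.3 and 23.6 CPM in α-KG, against 46.1, 27.9, 23.1, 41.3 and 50.3 CPM in water. α-KG 1, α-KG 3 and α-KG 4 were below every water library. Without α-KG 2 it was called at -1.31 (edgeR adjusted p = 0.0333), in a fit that called 17.4% of all genes and 6.97% lower. It was not called without any other single library (edgeR adjusted p = 0.105 to 0.282). Bcl11a (chromosome 11, 24078056 to 24174123), known as a repressor of embryonic and fetal-type globin genes, was at 59.2, 51.8, 35.5, 61.4 and 38.9 CPM in α-KG, against 39.9, 37.4, 41.9, 39.5 and 49.8 CPM in water. α-KG 1, α-KG 2 and α-KG 4 were above every water library and α-KG 3 below all of them, and the log2 fold change was 0.24 ± 0.16 SE (edgeR adjusted p = 0.332). The gene models Gm12064 and 4930538E20Rik overlap Bcl11a on the opposite strand.

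Epor (chromosome 9, 21958897 to 21963506), the receptor through which erythropoietin keeps red cell progenitors alive, was at 8.56, 72.9, 20.7, 47.2 and 67.4 CPM in α-KG 1 to 5, against 78.5, 85.3, 61.4, 81.8 and 91.4 CPM in water 1 to 5. Behind the lowest of these lay 220 counts. α-KG 1, α-KG 3 and α-KG 4 were below every water library, and α-KG 2 and α-KG 5 lay above water 3 only. The means were 43.4 ± 28.2 CPM in α-KG and 79.7 ± 11.3 CPM in water (SD, n = 5 each), with a log2 fold change of -0.88 ± 0.44 SE (edgeR adjusted p = 0.213).

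Per kilobase of merged exon, the levels of the 10 genes stood in the same order in both groups but for 1 pair. Zfpm1 and Klf1 led, at 85.0 ± 45.7 and 64.9 ± 43.9 CPM per kilobase in α-KG and 118 ± 25.9 and 108 ± 29.2 in water (SD, n = 5 each). Lmo2, Nfe2, Tal1, Epor and Gata1 followed in that order, from 49.5 ± 20.8 for Lmo2 to 17.9 ± 11.4 for Gata1 in α-KG and from 63.8 ± 14.6 to 32.1 ± 8.53 in water. Ldb1 and Gfi1b came next, at 11.7 ± 1.10 and 10.7 ± 6.25 in α-KG and 14.1 ± 2.46 and 20.6 ± 6.42 in water, so this pair stood in the other order in water. Bcl11a was last, at 3.75 ± 0.891 in α-KG and 3.16 ± 0.366 in water. In α-KG every step between neighbours but the last, down to Bcl11a, was smaller than the larger SD of the pair. In water that held for Zfpm1 and Klf1, Lmo2 and Nfe2, Nfe2 and Tal1, and Epor and Gata1, while the other steps were larger than both SDs.

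**Figure D2:**
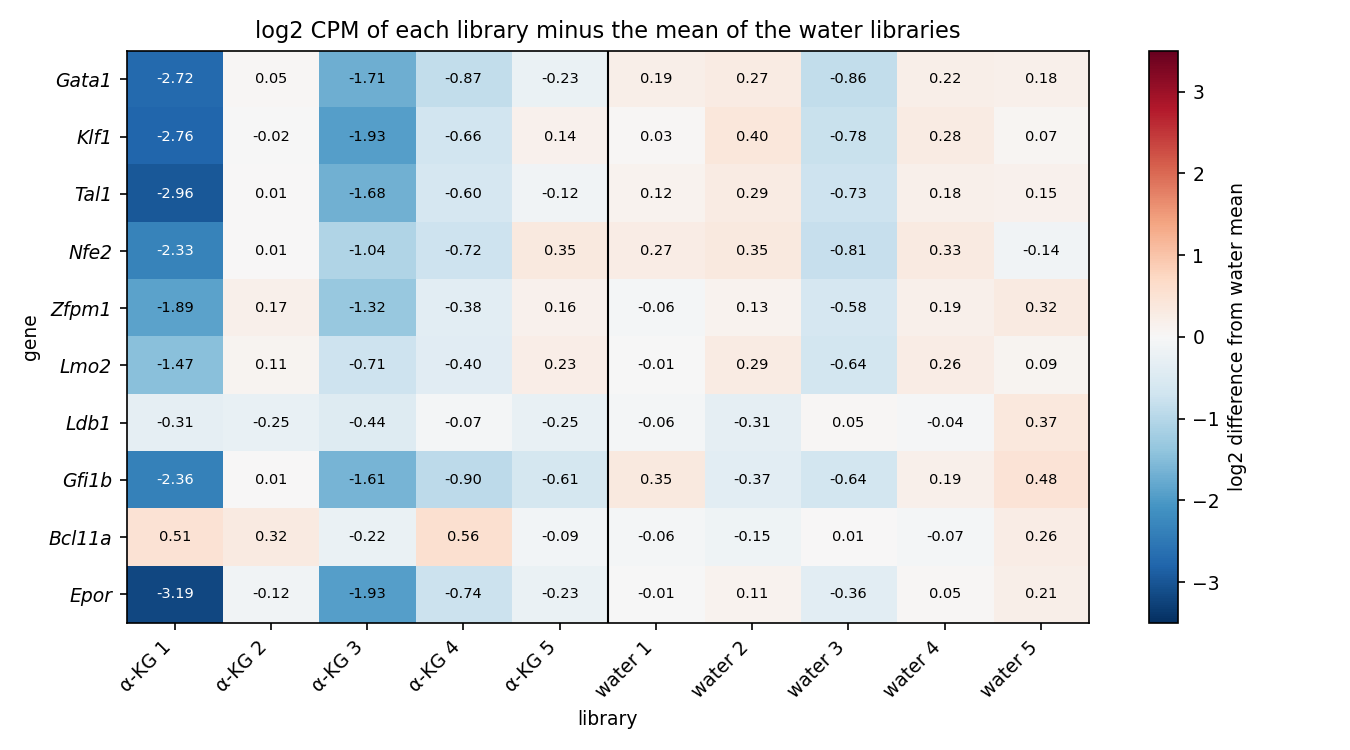
Log2 CPM of the 10 genes (rows) in each library (columns, α-KG left of the line and water right), as the difference from the mean of the water libraries. In α-KG 1 the differences are -2.72 for Gata1, -3.19 for Epor and 0.51 for Bcl11a, and in α-KG 3 they are -1.71, -1.93 and -0.22.

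Over the 10 libraries 8 of the genes lay closer to each other and 2 lay further off, with no sharp edge between them. Likeness was measured as the root mean square difference between log2 CPM values, each gene centred on its own mean, so that 0 means the same pattern. Between the 8 genes other than Ldb1 and Bcl11a these differences ran from 0.129 (Gata1 and Tal1) to 0.584. Ldb1 was 0.531 to 0.948 from the 8, Bcl11a 0.701 to 1.16, and the pair was 0.306 from each other. The measure is not scaled for spread, so genes that vary little lie close even where their directions differ. Ldb1 and Bcl11a had log2 fold changes of -0.28 and 0.24. Lmo2 was nearer to Ldb1 (0.531) than to Epor (0.584). Among all genes tested, the nearest of the 10 ranked 1 for Gata1, 294 for Lmo2 and 4043 for Ldb1. These values describe the 10 libraries, which all the genes share.

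Among all genes tested, Tal1 was the most like Gata1, followed by Tlcd4 (0.138) and Ces2g (0.143), where the median over all genes was 1.02. Klf1 was nearest to Abcb10 (0.138), a mitochondrial membrane transporter gene of haemoglobin-making cells, then to Tal1 (0.142) and Ubac1 (0.168), with a median of 1.06 over all genes. Epor was nearest to Ermap (0.0843), which encodes a red cell membrane protein, then to the phosphatidylserine synthase gene Ptdss2 (0.110) and to Samd14 (0.130), with a median of 1.10. These genes had log2 fold changes of -0.97 for Ces2g to -0.74 for Abcb10, and 0 of them were called (edgeR adjusted p = 0.171 to 0.315). Bcl11a was nearest to Agpat3 (0.113), Acbd6 (0.120) and Hspbp1 (0.124), where the median was 0.439, and these were at 0.17, 0.04 and 0.22.

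The products that these factors switch on did not follow them in every library. Adult globin transcripts (Hba-a1 and Hba-a2 for the α chain, Hbb-bs and Hbb-bt for the β chain) summed to 34852, 55943, 117886, 49744 and 79737 CPM in α-KG 1 to 5, against 57448, 62099, 24529, 62975 and 42144 CPM in water 1 to 5. α-KG 3 had the highest globin sum of all libraries together with the second lowest Klf1. The globin genes were at log2 fold changes of 0.36 to 0.54 (edgeR adjusted p = 0.415 to 0.586), and at 0.064 to 0.19 without α-KG 3. Since the copies of each chain are nearly identical, the split of reads between them is uncertain. Alas2, the first enzyme of red cell haem synthesis, was also highest in α-KG 3, at 2694 CPM, against 736 to 2158 CPM in the other α-KG libraries and 884 to 2083 CPM in water. The transferrin receptor gene Tfrc, which brings in iron before maturation ends, was instead at 380.3 CPM in α-KG 3 and at 100.4 to 1026 CPM in the other α-KG libraries, against 628 to 1383 CPM in water.

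**Figure D3:**
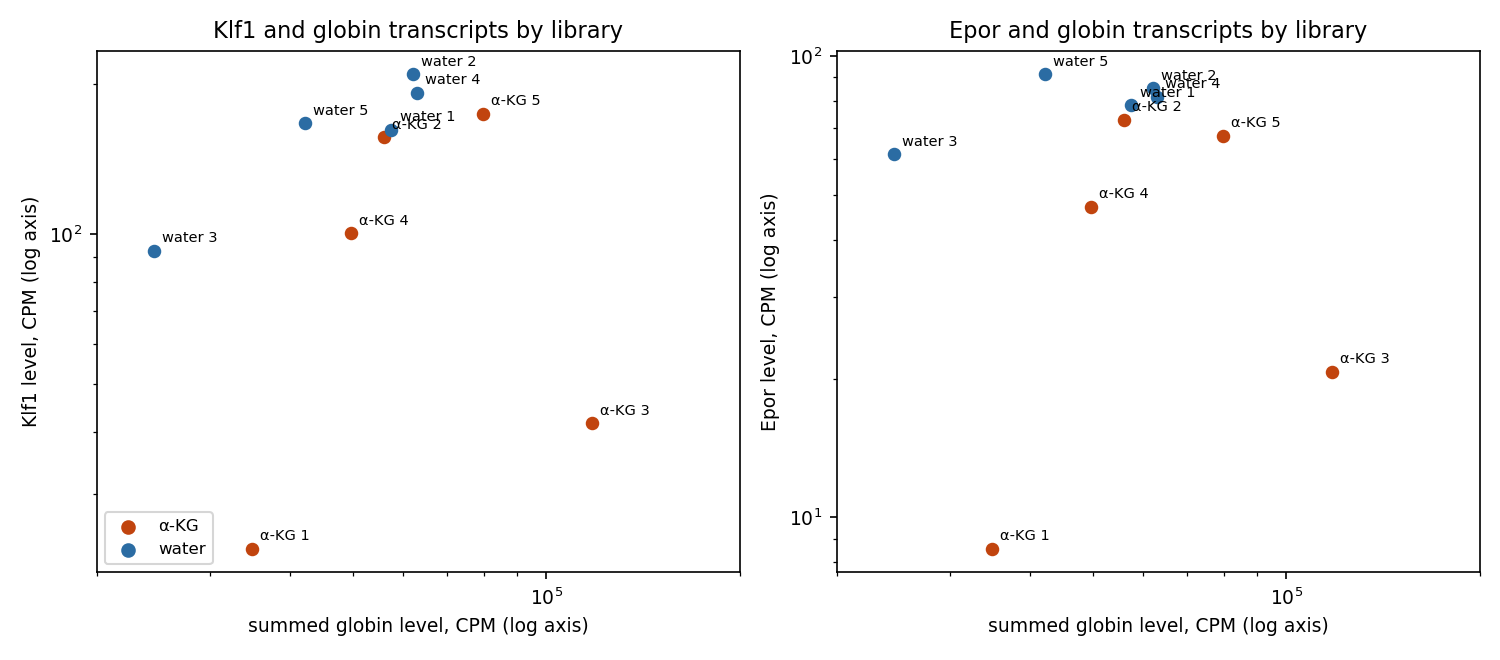
Klf1 (left panel) and Epor (right panel) in CPM against the summed CPM of 4 globin genes, 1 point per library, both axes logarithmic. α-KG 3 has the highest globin sum (117886 CPM) with 41.7 CPM of Klf1 and 20.7 CPM of Epor, while water 3 has the lowest globin sum (24529 CPM) with 92.6 and 61.4 CPM.

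Within each library, Klf1 was lower relative to globin in α-KG. Per 1000 CPM of globin there were 0.683, 2.81, 0.358, 2.03 and 2.20 CPM of Klf1 in α-KG 1 to 5, against 2.83, 3.38, 3.80, 3.06 and 3.98 in water 1 to 5. The groups did not overlap, but α-KG 2 and water 1 were almost equal. The log2 ratio averaged -9.64 ± 1.28 in α-KG and -8.21 ± 0.21 in water (SD, n = 5 each), a difference of -1.44 with an exact two-sided permutation p = 0.00794, the smallest that 5 against 5 libraries allow (adjusted p = 0.0238 over 3 ratios). The difference was -0.98 without α-KG 3.

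Gata1 relative to Gata2 was also lower in α-KG. GATA2 acts in stem cells, progenitors and mast cells and gives way to GATA1 as red cells mature. There were 0.314, 4.19, 0.554, 1.01 and 2.93 CPM of Gata1 per CPM of Gata2 in α-KG 1 to 5, against 7.53, 4.79, 3.02, 5.21 and 4.60 in water 1 to 5. All 5 α-KG ratios were below the water mean and 4 were below the lowest water ratio. The log2 ratio averaged 0.22 ± 1.58 in α-KG and 2.27 ± 0.47 in water (SD, n = 5 each), a difference of -2.05 (exact two-sided permutation p = 0.0159, adjusted p = 0.0238 over 3 ratios), and it was -1.57 without α-KG 1. Gata2 itself rose, at 37.3, 18.2, 41.7, 41.0 and 21.7 CPM in α-KG, against 11.04, 18.7, 13.4, 16.4 and 18.2 CPM in water (log2 fold change 1.04 ± 0.24 SE, edgeR adjusted p = 0.0448). The call on Gata2 was lost without α-KG 1, 3 or 4 or any 1 water library (edgeR adjusted p = 0.0604 to 0.123). It was also lost with RLE size factors, limma voom or either covariate (red cell products or cell cycle genes), and over all alternatives adjusted p ran from 0.00551 to 0.846.

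The calls on both ratios were kept without any 1 α-KG library and lost without any 1 water library (exact two-sided permutation adjusted p = 0.0833 to 0.0952). With a water library left out the groups are unequal. Splits that put α-KG 1 and α-KG 3 in the smaller group can then differ more than the observed split. The lost calls therefore do not show that the ratios hang on each water library. The Klf1 to globin groups did not overlap without any 1 library. Of the third ratio, Epor to Gata1, the mean log2 value was -0.07 ± 0.22 in α-KG and 0.07 ± 0.29 in water (SD, n = 5 each; exact two-sided permutation p = 0.437, adjusted p = 0.437). The 3 ratios were chosen with fold changes of these libraries already known, above 0 for Gata2 and globin and below 0 for Epor. Of these only Gata2 was called. The ratios therefore add no independent evidence of direction.

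**Figure D4:**
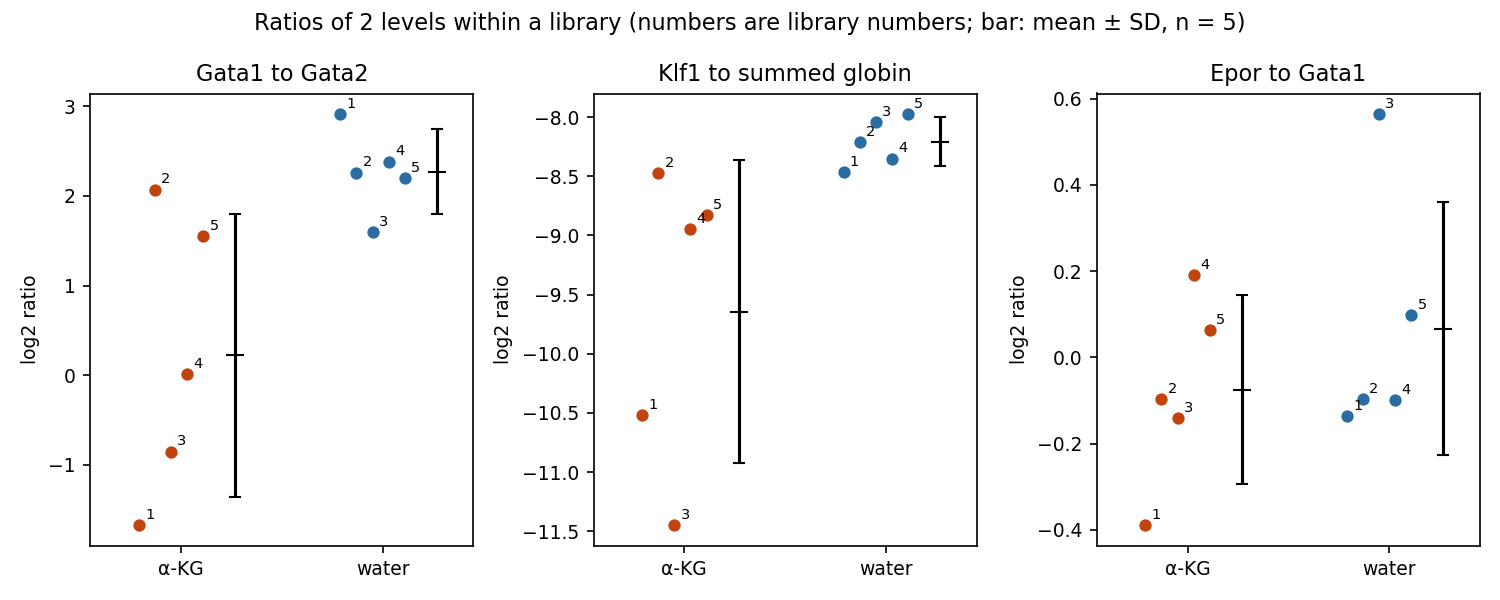
Log2 ratios of Gata1 to Gata2, Klf1 to summed globin and Epor to Gata1 in each library, α-KG left (orange) and water right (blue), with library numbers and mean ± SD (n = 5). For the first ratio the α-KG libraries run over -1.67 to 2.07 and the water libraries over 1.60 to 2.91, and only the second ratio has groups that do not overlap.

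Most other red cell products lay below 0, as did 9 of the 10 genes. Of 43 measured, globins included, 34 were below 0 on the log2 scale and the median was -0.57. Of the 43, 0 were called and 5 were at an unadjusted p under 0.05 (edgeR), where 27.8% of all genes were. Aqp1, the water channel of the red cell membrane, was at -1.23 ± 0.45 SE (edgeR adjusted p = 0.116), and the haem synthesis enzyme gene Alad at -1.04 ± 0.41 SE (edgeR adjusted p = 0.138). The anion exchanger gene Slc4a1 was at -0.59 (edgeR adjusted p = 0.435). Summed levels of the list were 39864 to 140052 CPM in α-KG and 41699 to 97431 CPM in water, most of it globin.

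With the mean level of these products as a covariate, 8 of the 10 genes were below 0, and their median was -0.25. That mean log2 CPM was itself 6.49 to 9.18 in α-KG and 8.30 to 9.31 in water. This fit therefore cannot separate the products from the treatment. Gfi1b, Epor and Gata1 were then at -0.54 ± 0.24, -0.47 ± 0.21 and -0.34 ± 0.18 (SE), and Nfe2, Zfpm1 and Lmo2 at -0.049, -0.080 and 0.013, with 0 of the 10 called (edgeR adjusted p = 0.254 to 0.971). Cell cycle genes lay low in the libraries where the 8 genes other than Ldb1 and Bcl11a were low. All 22 measured lay below 0 on the log2 scale, and their median was -0.76. Of the 22, 0 were called and 20 were at an unadjusted p under 0.05 (edgeR), where 27.8% of all genes were. Their summed level was 1383, 4762, 2425, 3369 and 4200.2 CPM in α-KG 1 to 5, against 5661, 5629.7, 4190.2, 5805 and 5946 CPM in water 1 to 5, so α-KG 1 and α-KG 3 were again the lowest. Cdk1 and Ccnb2, which drive entry into mitosis, were at -0.81 and -1.02 (edgeR adjusted p = 0.0555 and 0.0690). With the mean of this list as a covariate, only Ldb1 of the 10 stayed below 0, and the median of the 10 was 0.43. No gene of all 15126 tested was called (edgeR, 912 at an unadjusted p under 0.05). Of the 10, 5 were under that value, all above 0: Gata1, Klf1, Tal1, Zfpm1 and Lmo2. The covariate itself differed between the groups, with a mean log2 CPM of 5.02 to 6.52 in α-KG and 6.25 to 6.89 in water. This fit therefore cannot separate the list from the treatment.

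**Figure D5:**
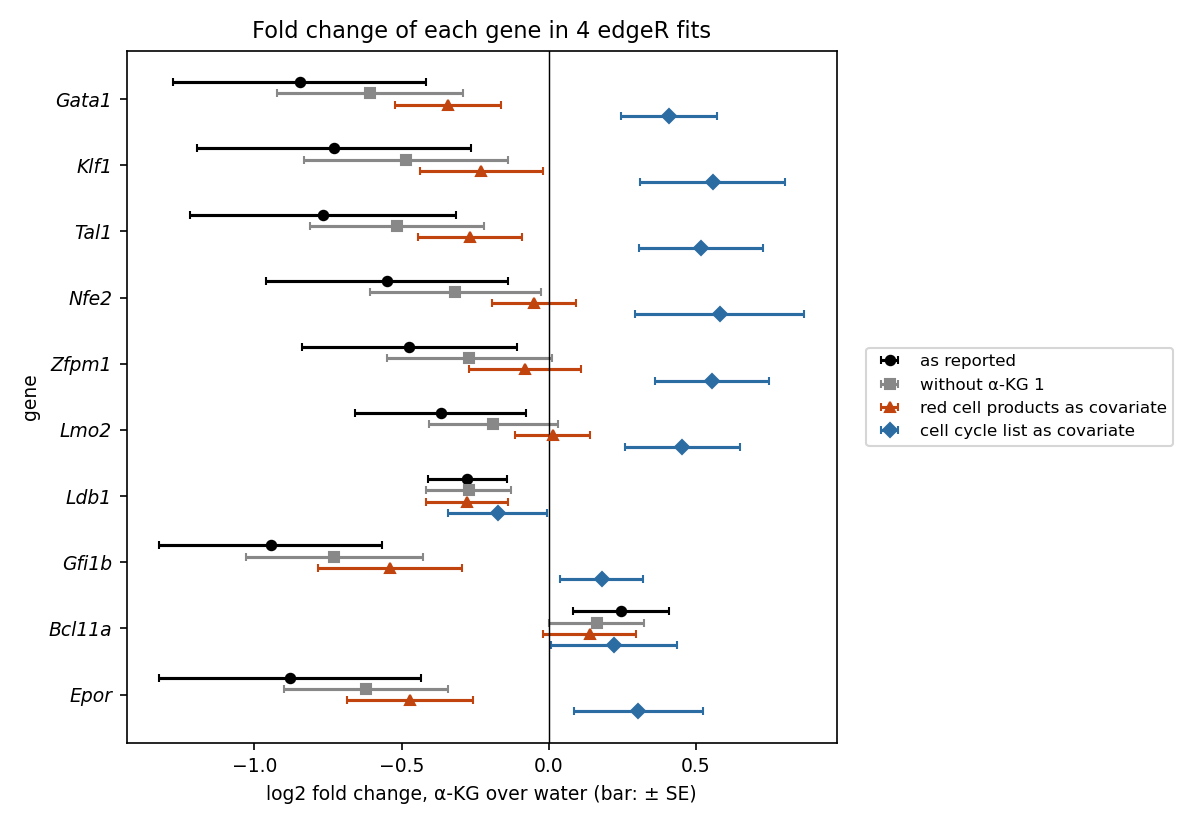
Log2 fold change of each gene, α-KG over water, with its SE, as reported (black), without α-KG 1 (grey), with red cell products as a covariate (orange) and with cell cycle genes as a covariate (blue). Gata1 is at -0.85, -0.61, -0.34 and 0.41 in these 4 fits, and Bcl11a at 0.24, 0.16, 0.14 and 0.22.

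Of the genes that carry the erythropoietin signal, 28 were measured, and 1 was called, where 2.73% of all genes were called. Ptpn6, encoding the phosphatase SHP-1 that switches the receptor off, rose, at 81.1, 63.5, 79.2, 90.9 and 73.2 CPM in α-KG, against 55.9, 51.7, 58.7, 48.0 and 45.8 CPM in water (log2 fold change 0.58 ± 0.13 SE, edgeR adjusted p = 0.0375). The groups did not overlap, as for 5.65% of all genes. Ptpn6 is also abundant in other blood cells. Its call was lost without α-KG 1, 3, 4 or 5 or water 1, 2, 4 or 5 (edgeR adjusted p = 0.0584 to 0.130), and also with library totals, with no filter and with either covariate (0.0578 to 0.725). The kinase gene Jak2 and the signal transducer genes Stat5a and Stat5b were at -0.27, 0.35 and 0.24 (edgeR adjusted p = 0.105 to 0.329). Of the feedback inhibitors that STAT5 induces, Cish was at -0.67 ± 0.38 SE, with 8.24, 35.6, 16.6, 27.0 and 50.4 CPM in α-KG, against 40.9, 52.0, 28.4, 49.6 and 48.0 CPM in water (edgeR adjusted p = 0.261). Socs2 and Socs3 were at 0.56 and 0.34 (edgeR adjusted p = 0.215 and 0.298). Of the 28, 16 had log2 fold changes below 0, and the median was -0.07.

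Of 28 measured genes that act with GATA1, TAL1 and GFI1B in complexes or compete with them, Gata2 was the 1 called. Over all genes 2.73% were called. Of these 28, 19 lay below 0 on the log2 scale, the median was -0.15 and the lowest was -1.06. At an unadjusted p under 0.05 (edgeR) 6 were lower and 5 higher, where 27.8% of all genes were under that value. Spi1, whose product PU.1 opposes GATA1 and drives myeloid fate, was at 0.41 ± 0.15 SE, and the megakaryocyte factor gene Fli1, which opposes KLF1, at 0.46 ± 0.17 SE (edgeR adjusted p = 0.119 and 0.111). Runx1 was at 0.15 (edgeR adjusted p = 0.363). Monocyte and macrophage genes were higher in the α-KG group: 10 of 18 measured rose, where 2.39% of all genes rose. All 18 log2 fold changes were above 0. Summed levels were 386 to 729 CPM in α-KG and 256 to 369.8 CPM in water. The scavenger receptor gene Mrc1, the haem-degrading enzyme gene Hmox1, the receptor kinase gene Axl and the protease gene Ctss rose by log2 fold changes of 1.13 to 1.96 (each edgeR adjusted p = 0.0154). Their part in the levels of the 10 genes was not tested.

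Other lineages that use these factors gave few calls. Platelet and megakaryocyte genes, which need GATA1, NF-E2 and GFI1B, had 15 of 20 log2 fold changes above 0, a median of 0.23 and 0 calls. Of the 20, 6 were at an unadjusted p under 0.05 (edgeR), where 27.8% of all genes were. Tubb1, the platelet tubulin gene known to depend on NF-E2, was at 7.19, 2.27, 5.08, 4.94 and 3.53 CPM in α-KG, against 1.48, 2.53, 2.03, 2.53 and 2.36 CPM in water (log2 fold change 1.09 ± 0.28 SE, edgeR adjusted p = 0.0584). α-KG 1, the lowest library for Nfe2, was the highest for Tubb1. The platelet chemokine gene Ppbp was at 0.82 ± 0.21 SE (edgeR adjusted p = 0.0577), with no overlap between groups, as for 5.65% of all genes. Of 17 measured B cell and plasmacytoid dendritic cell genes, which share Bcl11a, 12 lay above 0 on the log2 scale, and the median was 0.19. There were 0 calls, and 1 of the 17 was at an unadjusted p under 0.05 (edgeR), against 27.8% of all genes. Their summed level was 645 CPM in α-KG 1 and 173 to 291 CPM in the other α-KG libraries, against 191 to 304 CPM in water. Tcf4, a regulator of plasmacytoid dendritic cells, was at 0.36 (edgeR adjusted p = 0.161), with its highest levels in α-KG 1 and α-KG 4, the libraries highest for Bcl11a. Klk1 of the same list was at -1.01 (edgeR adjusted p = 0.199), but was scarce, at 0.059 to 1.01 CPM in α-KG and 0.61 to 1.21 CPM in water.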

How the data were processed

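Total RNA of mouse bone marrow cells was depleted of ribosomal RNA with RNase H and sequenced on an Illumina instrument, per the labels. The submitters' processing notes name bcl2fastq, DRAGEN and GRCm38; no source used here gives the quantifier, annotation or strand setting. The authors deposited expected counts per gene, unscaled, of which 10.3% are not whole numbers; they were rounded. Genes passing filterByExpr (minimum count 10, minimum total 15) were kept, 15126 of 32183 with a count. They were tested with edgeR 4.0.16 (TMM, robust quasi-likelihood F test, two-sided, R 4.3.3), adjusted by Benjamini-Hochberg, with a threshold of 0.05. The SE is the absolute log2 fold change over the square root of F. Log2 CPM used a prior count of 2, and ratios took CPM with 0.5 added. Alternatives included DESeq2 1.42.0 and limma 3.58.1. Positions and exon lengths came from GENCODE M21 on GRCm38.

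The 10 genes, 10 further lists and 3 ratios were chosen with earlier results of these data known. Text also names 18 fixed genes, up to 5 called genes of each list (otherwise the 2 of smallest p) and the 3 genes most like Gata1, Klf1, Epor and Bcl11a; 2 genes under this rule are not reported here.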

Additional observations from a re-analysis of the deposited data

Results flagged for a closer look

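In groups of 5 libraries, a single library stood far from the others in 8 of 112 groups examined. That is not far above the 1 in 20 that chance gives for independent, normally spread values. The groups share libraries and many of the genes moved together, so the flags are not separate cases. In 7 of the 8 flags the library was water 3. It held 41.4 CPM of Gata1, where the other water libraries held 85.3 to 91.2 CPM. For Tal1 it held 138 CPM, where the others held 248 to 279.6 CPM. The genes most like Gata1 or Epor had the same low library, with 25.7 CPM of Tlcd4 against 44.7 to 48.7 CPM in the other water libraries, 85.6 CPM of Ces2g against 144 to 158 CPM and 71.7 CPM of Ptdss2 against 115 to 122 CPM. They were picked for that likeness and add no separate case. Alad stood at 75.1 CPM in water 3, where the other water libraries held 125 to 141 CPM. Mrc1, a macrophage receptor gene, was high there instead, at 5.01 CPM against 2.81 to 3.33 CPM in the other water libraries. Ppbp was high in α-KG 1, at 7.39 CPM, where the other α-KG libraries held 3.60 to 4.66 CPM.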

How the results depend on the processing

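No paired analysis was possible because no replicate number is shared by α-KG and water in the titles. Over 23 alternatives 0 of the 10 genes were called higher, and calls lower came in 3. With library totals only, which moved the median of all genes to -0.22, Gata1 (-1.15), Tal1 (-1.09), Gfi1b (-1.25) and Epor (-1.21) made 4, and 117 genes were higher and 1042 lower, so 10.1% of calls were higher against 87.4%. Limma voom with quality weights called 2 of the 10, Gata1 (-1.08) and Gfi1b (-1.09), beside 1401 genes higher and 989 lower. Leaving out 1 library gave 0 to 1 of the 10 (the 1 without α-KG 2), 0 to 1610 genes higher and 0 to 1073 lower. DESeq2 called 969 higher and 688 lower and limma voom 225 higher; upper quartile scaling gave 100 lower, no filter 154 lower, the red cell covariate 99 higher and 10 lower, and the cell cycle covariate 0 and 0.

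The cell cycle covariate reversed Gata1 (0.41), Klf1 (0.56), Tal1 (0.52), Nfe2 (0.58), Zfpm1 (0.55), Lmo2 (0.45), Gfi1b (0.18) and Epor (0.30). It also reversed Jak2 (0.16), Cish (0.39), Slc4a1 (0.58), Tfrc (0.49), Kit (-0.072), Aqp1 (0.10), Alad (0.12), Tlcd4 (0.27), Ces2g (0.24), Abcb10 (0.55), Ubac1 (0.41), Ermap (0.20), Ptdss2 (0.25) and Samd14 (0.23). The cause was not tested. The red cell covariate reversed Lmo2 (0.013) and Acbd6 (-0.038). Library totals reversed Runx1 (-0.070), Alas2 (-0.17), Kit (-0.21), Mmp8 (-0.042), Cxcr2 (-0.071), Agpat3 (-0.031) and Acbd6 (-0.17), and voom with quality weights reversed Alas2 (-0.018). Leaving out 1 library gave -0.088 to 0.32 for Alas2, -0.0016 to 0.19 for Kit, -0.032 to 0.12 for Acbd6 and -1.31 to -0.73 for Gfi1b.

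Calls in lists also depended on the setting. In the order below the lists had 28, 28, 43, 20, 14, 13, 18 and 22 genes tested. Over all genes, 7.66% were called with library totals, 10.4% with DESeq2, 15.8% with quality weights and 0 to 17.4% without 1 library. The share was 2.17% with RLE, 1.77% with voom, 3.68% with upper quartile scaling, 1.81% with no filter and 3.32% with a minimum count of 30. It was 0.721% with the red cell covariate and 0 with the cell cycle covariate. Cofactors had 0 with RLE size factors, voom or either covariate, 3 with library totals, 2 with DESeq2, 4 with quality weights and 0 to 5 without 1 library. Erythropoietin signalling had 3 with upper quartile scaling, 4 with library totals, 0 with no filter or either covariate, 2 with a minimum count of 30, 7 with DESeq2, 8 with quality weights and 0 to 8 without 1 library. Red cell products had 11 with library totals, 1 with DESeq2, 5 with quality weights and 0 to 1 without 1 library. Megakaryocyte genes had 2 with no filter, 3 with DESeq2 or quality weights and 0 to 4 without 1 library. Mast cell genes had 0 with RLE, voom or either covariate, 2 with library totals, DESeq2 or quality weights and 0 to 4 without 1 library. Stem cell genes had 0 with RLE, voom or either covariate and 0 to 2 without 1 library. Monocyte genes had 17 with quality weights, 0 with the cell cycle covariate and 0 to 16 without 1 library. Cell cycle genes had 1 with upper quartile scaling, no filter or a minimum count of 30, 19 with library totals, 15 with DESeq2, 20 with quality weights and 0 to 18 without 1 library. Without 1 library the difference in the Gata1 to Gata2 ratio was -2.51 to -1.57, and that in Klf1 to globin was -1.73 to -0.98.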

Other observations

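Of 13 measured stem and progenitor genes, all 13 lay above 0 on the log2 scale, and the median was 0.29. Gata2 was the 1 that rose (edgeR), where 2.39% of all genes rose. The cytokine receptor gene Kit, used by progenitors and mast cells, was at 17.5, 17.1, 20.1, 16.2 and 15.04 CPM in α-KG 1 to 5, against 21.3, 12.9, 19.5, 13.8 and 14.1 CPM in water 1 to 5, and did not follow Gata2. Mast cell, basophil and eosinophil genes had 9 of 14 members above 0 and a median of 0.29. They had 1 call, Gata2 again, where 2.73% of all genes were called. Their summed level was 549 CPM in α-KG 3 and 259 to 426 CPM in the other α-KG libraries, against 238 to 389 CPM in water. Neutrophil genes had 6 of 13 log2 fold changes above 0, a median of -0.003 and 0 calls (edgeR, 0 at an unadjusted p under 0.05). Mmp8 and Cxcr2, genes of maturing neutrophils, were at 0.29 and 0.25 (edgeR adjusted p = 0.400 and 0.472).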
